A study of Mus musculus with 18 samples.

Results

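The question addressed here was whether the transcript response of bone-forming cells to ultrasound depended on collagen in the membrane they grew on. Cells of MC3T3-E1, an established line of mouse pre-osteoblasts from skull bone, had been seeded at 20000 cells per well on sterilised 15 mm membrane discs and kept there for 5 days before polyadenylated RNA was sequenced. The 4 groups were PLLA/ZnO without ultrasound (-US), PLLA/ZnO with ultrasound for 10 min every day (+US), PLLA/ZnO@Col -US and PLLA/ZnO@Col +US, each with 3 libraries. PLLA is a biodegradable polyester, ZnO is zinc oxide, and @Col marks the membrane with collagen, so that all 4 groups shared the polyester and the zinc oxide. These 12 libraries of the 18 in the series were chosen by group alone. The 6 libraries on plain PLLA entered no contrast, but counted in the filter on low values, the scaling and the estimate of spread.

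For each gene, the ultrasound effect on PLLA/ZnO@Col less the ultrasound effect on PLLA/ZnO was estimated, and this difference of 2 log2 fold changes is called the interaction. A positive interaction means that +US against -US was higher, or less low, on the collagen membrane. Whether the 3 replicates of a group were separate cultures is not stated in the labels. The p-values then reflect no more than the spread among these libraries, and that spread may be technical. The cell line is a model of early osteoblasts and lacks the tissue around bone.

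As background, type I collagen binds cells through integrins and other receptors, and osteoblasts both secrete it and respond to it. A piezoelectric membrane develops charge when deformed, and ultrasound is a way to deform it. Genes that could respond include mechanically induced early genes, Wnt and BMP targets, matrix genes, and stress programmes such as the hypoxia response. In that response, HIF-1 binds a short core sequence near genes of glycolysis, glucose uptake and collagen hydroxylation. Interferon-stimulated genes, with those of antigen presentation on major histocompatibility complex (MHC) class I, form another programme that fibroblasts and osteoblasts can switch on.

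Library totals ran from 48307580 to 62419655 counts over the 12 libraries. Col1a1, the main collagen of bone, lay between 500.4 and 1165 FPKM, Spp1 (osteopontin) between 637 and 3609 FPKM and Runx2, the transcription factor that starts the osteoblast programme, between 6.22 and 9.49 FPKM. Markers of later osteoblasts were low: Sp7 reached 0.746 FPKM at most, Bglap 0.573, Alpl 0.118 and Ibsp 0.0286. Endothelial Erg, Kdr and Tie1 and the osteocyte marker Sost were at 0 in all 12 libraries. The summed FPKM of adipocyte markers reached 1.39 at most, that of epithelial markers 1.52 and that of endothelial markers 5.55. Libraries stood apart in 3 respects. Y-linked genes gave 1.68 and 2.48 CPM (counts scaled to the library total) in PLLA/ZnO@Col -US replicates 1 and 3 and 3.12 in PLLA/ZnO@Col +US replicate 1, against 19.2 to 152 in the other 9. All 3 libraries with few Y-linked reads, called few-Y libraries below, were on the collagen membrane. Mitochondrially encoded genes took 4.54% of the counts in PLLA/ZnO@Col -US replicate 2, the highest share, and under 2% in replicate 3 of PLLA/ZnO +US, replicate 3 of PLLA/ZnO@Col -US and replicates 2 and 3 of PLLA/ZnO@Col +US. Results are therefore also given without the 3 libraries with few Y-linked reads, or without the libraries under 2%. The first choice leaves PLLA/ZnO@Col -US replicate 2 as the only library of its group. The second leaves PLLA/ZnO@Col +US replicate 1, itself a few-Y library, as the only one of its group. In each choice the lone library is assumed to vary like the other groups.

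The third respect was a set of markers of another cell type. The summed FPKM of 14 macrophage and osteoclast markers ran from 25.3 to 51.9 on PLLA/ZnO -US, 28.6 to 49 on PLLA/ZnO +US, 38.2 to 61 on PLLA/ZnO@Col -US and 25 to 58 on PLLA/ZnO@Col +US, and none of the 14 was at 0 in all 12 libraries. Within that sum, Tyrobp, Itgam, Csf1r and Ctss together gave 0.0923 to 0.243 FPKM in 5 libraries and 4.06 to 5.84 in the other 7. The 5 were replicate 3 of PLLA/ZnO -US, replicate 3 of PLLA/ZnO +US, replicate 2 of PLLA/ZnO@Col -US, and replicates 2 and 3 of PLLA/ZnO@Col +US. All 3 few-Y libraries were among the 7. Lyz2 (lysozyme) was at 5 to 7.36 FPKM in the 5 and 17.1 to 26.8 in the 7. Cd68 was at 0.381 to 1.45 FPKM in the 5 and 4.5 to 5.97 in the 7. Ctsk, Cd14 and Mrc1 did not split in this way. Ctsk (cathepsin K) was at 6.69 to 16.7 FPKM in the 5 and 4.89 to 8.38 in the 7. Cd14 was at 9.87 to 14.8 and 11.9 to 17.2. Mrc1 reached 0.26 in the 5 and 0.27 in the 7. Fcgr3, Aif1, Adgre1 and Acp5 reached 0.182 FPKM at most. Ptprc, the pan-leukocyte marker, was low throughout, at 0 to 0.0035 FPKM in the 5 and 0.03 to 0.0935 in the 7. In bulk RNA, fewer cells of a type and less RNA per cell cannot be told apart. A term in the fit for libraries under 1 FPKM in the sum of those 4 markers was therefore added, after the data were seen, and its values are given with the results.

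No gene differed in its ultrasound response between the membranes once p-values were adjusted. Of 11936 genes tested with edgeR's quasi-likelihood test, 0 (0%) had a Benjamini-Hochberg adjusted p under 0.05 for the interaction, and the smallest adjusted p was 0.999. DESeq2 and limma on log2(FPKM + 1) also called 0 genes. At an unadjusted p under 0.05, 263 genes (2.2%) were past the threshold by edgeR. Of these 263, 204 (1.71% of all genes) had a positive and 59 (0.494%) a negative interaction, while over all tested genes, whatever their p, 42.8% were positive and 57.2% negative. At an unadjusted p under 0.01 the count was 36 genes (0.302%). Both shares lay below their own thresholds, 0.05 and 0.01 of the genes, which would be passed on average if no gene had an interaction. The 263 depended strongly on the libraries used. It was 983 without PLLA/ZnO@Col -US replicate 2, 694 without PLLA/ZnO@Col +US replicate 1, 532 without PLLA/ZnO -US replicate 2 and 401 without PLLA/ZnO@Col -US replicate 3. It was 104 and 119 without replicate 3 or replicate 2 of PLLA/ZnO@Col +US, 129 without PLLA/ZnO -US replicate 3, 160 without PLLA/ZnO -US replicate 1 and 122 with the 12 libraries only. Without the few-Y libraries 1577 genes passed, without the libraries under 2% mitochondrial counts 951, and with the term for few macrophage marker reads 199. DESeq2 gave 306 and limma 197. The median standard error (SE) of an interaction was 0.33 on the log2 scale, and differences near that size could not be resolved with these libraries. Because the adjusted p was 0.999 for every gene named below, their values are given as measurements, and the unadjusted p serves only to say how the genes were picked.

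Neither arm had a called gene. Ultrasound on PLLA/ZnO gave 0 of 11936 genes (0%) at an adjusted p under 0.05 by edgeR, with 387 genes (3.24%) at an unadjusted p under 0.05, of which 251 were higher (2.1%) and 136 lower (1.14%) with ultrasound. On PLLA/ZnO@Col the counts were 0 (0%) and 976 (8.18%), with 615 higher (5.15%) and 361 lower (3.02%), and the smallest adjusted p was 0.525 against 0.937 on PLLA/ZnO. The order of these 2 counts was not stable. Without PLLA/ZnO@Col +US replicate 2 the collagen arm had 276 genes at an unadjusted p under 0.05 and the PLLA/ZnO arm 349, and without PLLA/ZnO@Col +US replicate 3 they had 331 and 333. The collagen count was 2335 without PLLA/ZnO@Col -US replicate 3, 2283 without PLLA/ZnO@Col +US replicate 1, 1800 without PLLA/ZnO +US replicate 3 and 4803 without the few-Y libraries. The PLLA/ZnO count was 119 without PLLA/ZnO +US replicate 3, 654 without PLLA/ZnO@Col -US replicate 2 and 874 without the few-Y libraries. With the 12 libraries only, the collagen count was 530 and the PLLA/ZnO count 166. By DESeq2, 5 genes were called on PLLA/ZnO and 3 on PLLA/ZnO@Col. The +US and -US libraries did not overlap for 1366 genes (11.4%) on PLLA/ZnO and for 1315 genes (11%) on PLLA/ZnO@Col. Over genes, which are not independent replicates, the arms had a Pearson correlation of 0.373 and a Spearman correlation of 0.531. The arms have no library in common but share the normalization and the estimate of spread.

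**Figure D1:**
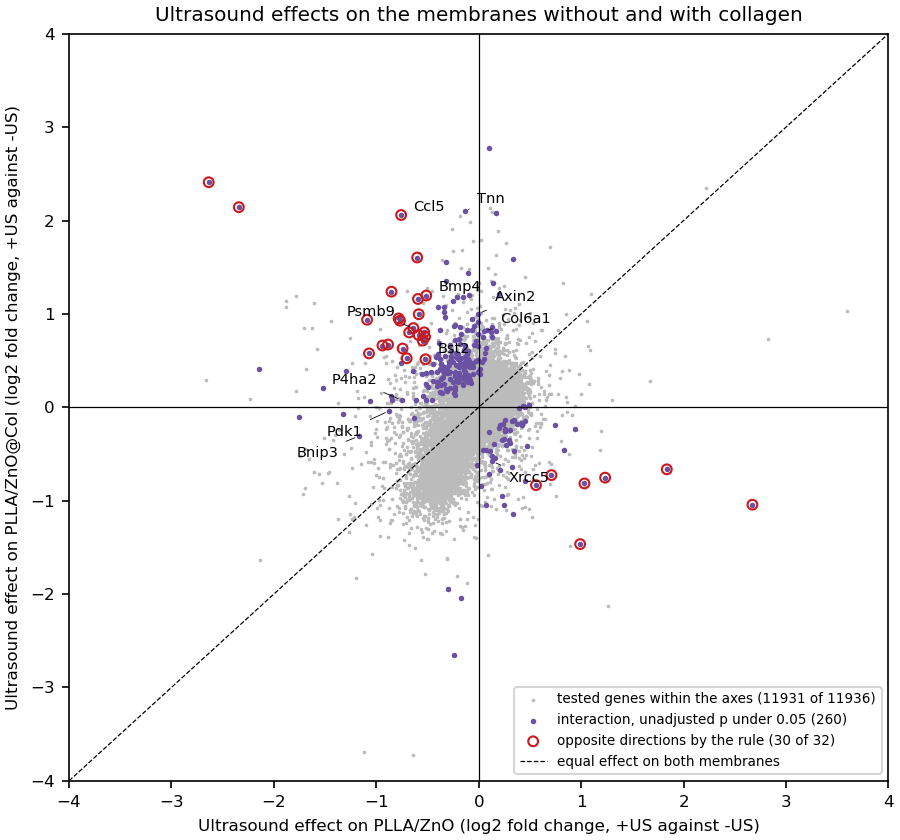
Each dot is a tested gene, with its ultrasound effect on PLLA/ZnO (log2, horizontal) and on PLLA/ZnO@Col (log2, vertical). Purple dots have an unadjusted interaction p under 0.05 and circles mark genes of opposite directions, which lie in the upper left and lower right; the dashed line is an equal effect, and 5 tested genes outside the axes are not drawn, of which 3 are purple and 2 circled.

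For the 204 positive genes, the group mean farthest from the other 3 was PLLA/ZnO@Col -US as the lowest in 114 (55.9%), against 11.9% of all tested genes. It was PLLA/ZnO -US as the highest in 34 (16.7%, against 10.2%), PLLA/ZnO@Col +US as the highest in another 34 (16.7%, against 15.8%) and PLLA/ZnO +US as the lowest in 22 (10.8%, against 5.32%). The interaction itself picked these genes, so the counts are a description. The 59 negative genes had no such leading group: PLLA/ZnO@Col -US was highest in 19, PLLA/ZnO -US lowest in 18, PLLA/ZnO@Col +US lowest in 15 and PLLA/ZnO +US highest in 7. The sign of the interaction allows only these patterns. Only 1 of the 3 PLLA/ZnO@Col -US libraries had the usual number of Y-linked reads.

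Genes of glycolysis and hypoxia had the highest share of positive interactions (91.9%) among the lists with at least 10 tested members, ahead of collagen processing genes (90.5%). Of 37 tested entries, with Aldoa listed under 2 identifiers, 34 had a positive interaction, 7 of them at an unadjusted p under 0.05 and none in the other direction, against 42.8% positive and 1.71% positive past that threshold over all genes. The list's median interaction was 0.35, against -0.05 for all tested genes. Its median ultrasound effect was -0.39 on PLLA/ZnO, where 35 of 37 entries were lower with ultrasound against 53.7% of all genes lower and 46.3% higher, and -0.04 on PLLA/ZnO@Col, where 21 were lower against 52.9% of all genes lower and 47.1% higher. The median interaction stayed positive in every alternative, at 0.57 without the few-Y libraries, 0.80 without the libraries under 2% mitochondrial counts, 0.32 with the term for few macrophage marker reads and 0.21 to 0.53 with each of the 12 libraries left out, the lowest without PLLA/ZnO -US replicate 3 and the highest without PLLA/ZnO@Col -US replicate 3. No entry was called.

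Since HIF-1 recognises the core ACGTG, read as CACGT on the other strand, the 250 bases before the start of each listed gene were searched on both strands in RefSeq promoters of GRCm38.p6. The core occurred in 22 of 33 list genes with a window (66.7%) and in 4998 of 27025 genes (18.5%). A match is a description of the letters and not a binding site. The list was drawn up from genes of this response, and the 27025 genes were not limited to those tested. These shares do not depend on the libraries and say nothing about ultrasound or collagen. Of the list genes described below, Bnip3, Car9 and Slc2a1 also held the core, and Pdk1 did not. The window of P4ha2 is shown because this gene lies in both the hypoxia and the collagen processing list, with the core in capitals at base 78 before the start. It covers chr11:54100674-54100923 on the plus strand, which is inside the span of the gene in the deposited table, and overlaps no annotated exon.
P4ha2: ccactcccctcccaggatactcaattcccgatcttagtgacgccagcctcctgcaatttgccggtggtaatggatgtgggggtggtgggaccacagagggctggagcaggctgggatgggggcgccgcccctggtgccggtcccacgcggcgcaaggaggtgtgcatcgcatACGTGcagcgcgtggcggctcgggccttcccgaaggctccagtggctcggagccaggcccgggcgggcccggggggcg

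P4ha2 (GRCm38 chromosome 11, 54100095 to 54131662) encodes a prolyl hydroxylase subunit that hydroxylates procollagen. It had 22.1, 24.9 and 34.8 FPKM on PLLA/ZnO -US and 13.7, 15.6 and 19.4 on PLLA/ZnO +US. On the collagen membrane it had 15.4, 17 and 22.6 FPKM without and 20.4, 17.6 and 19.7 with ultrasound. The libraries without and with ultrasound did not overlap on PLLA/ZnO and did on PLLA/ZnO@Col. The interaction was 0.82 ± 0.26 (SE), from a log2 difference of -0.75 ± 0.18 on PLLA/ZnO and 0.07 ± 0.18 on PLLA/ZnO@Col, and it was 0.90 without the few-Y libraries and 1.25 without the libraries under 2%.

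Pdk1 (chromosome 2, 71873224 to 71903858), a kinase that limits the oxidation of pyruvate in mitochondria, had the same form. Its FPKM was 13.3, 15.1 and 18.6 on PLLA/ZnO -US, 8.55, 9.61 and 7.43 on PLLA/ZnO +US, 6.99, 11.2 and 7.19 on PLLA/ZnO@Col -US, and 7.89, 7.22 and 9.37 on PLLA/ZnO@Col +US. Only the PLLA/ZnO -US libraries were high, and they lay above all 9 others. The interaction was 0.84 ± 0.25 and 0.48 without the few-Y libraries.

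Bnip3 (chromosome 7, 138890836 to 138909519), a mitophagy receptor, had 50.8, 71.6 and 86.9 FPKM on PLLA/ZnO -US and 28.8, 35.3 and 28.8 on PLLA/ZnO +US. It had 30.2, 46 and 51.3 FPKM on PLLA/ZnO@Col -US and 46, 26.6 and 29.4 on PLLA/ZnO@Col +US. Bnip3 was thus lower with ultrasound in both arms, at -1.17 ± 0.24 and -0.31 ± 0.23, and the arms differed by 0.86 ± 0.33. That difference was 0.57 without PLLA/ZnO@Col +US replicate 1, 0.48 without the few-Y libraries and 1.42 without the libraries under 2%. Slc2a1, the glucose transporter GLUT1, had an effect of -0.46 ± 0.14 on PLLA/ZnO without overlap, 0.07 ± 0.14 on PLLA/ZnO@Col and an interaction of 0.53 ± 0.19, or 0.85 without the libraries under 2%. Car9, the hypoxia-induced carbonic anhydrase, had effects of -1.56 ± 0.44 and -0.71 ± 0.44, and its interaction of 0.85 ± 0.61 came to 0.12 without PLLA/ZnO -US replicate 3, the library at 21 FPKM where the other two of its group had 7.9 and 6.34.

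**Figure D2:**
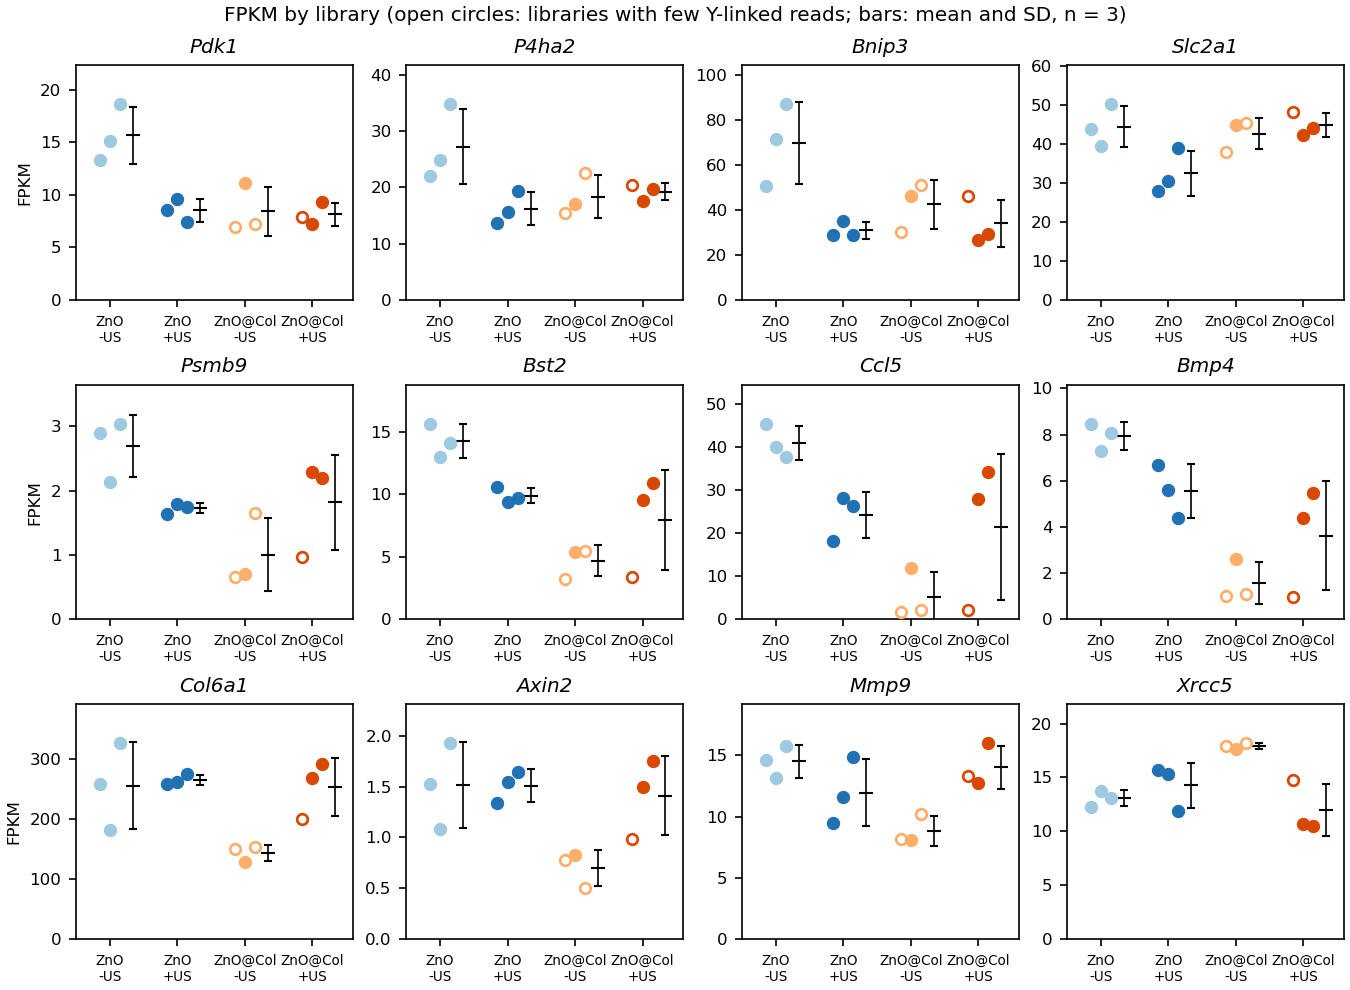
FPKM (vertical axis, linear from 0) of 12 genes in the 4 groups, with a dot per library, open dots for the 3 libraries with few Y-linked reads, and bars for mean and SD (n = 3). PLLA/ZnO -US stands high for Pdk1, P4ha2 and Bnip3, while for Ccl5 and Bmp4 the open dots lie lowest in both collagen groups.

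Interferon-stimulated genes had ultrasound effects of opposite sign on the 2 membranes in 20 of 35 tested members, against 29.7% of all genes. Of the 35 members, 30 had a positive interaction, against 42.8% of all genes. At an unadjusted p under 0.05, 6 were positive, against 1.71% of all genes, and none was called. Their median effect of ultrasound was -0.33 on PLLA/ZnO, with 31 lower, against 53.7% of all genes. On PLLA/ZnO@Col it was 0.11, with 24 higher, against 47.1% of all genes. The median interaction was 0.47. It was 0.66 without the few-Y libraries, 0.19 without the libraries under 2% mitochondrial counts and 0.58 with the term for few macrophage marker reads. Members shared with the MHC class I list below, such as Psmb9, count in both.

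The interferon response element, searched on both strands of the same 250-base windows as 2 copies of GAAA with any 2 bases between them, occurred in 10 of 28 members with a window (35.7%) and in 936 of 27025 genes (3.46%). The same limits hold for these shares, since the list was drawn up from interferon-stimulated genes. Gbp2 held a match, while Psmb9 and Xaf1 did not. The window of Bst2 is shown because this member met the rule for opposite directions and holds 2 overlapping matches, which the capitals mark. It covers chr8:71537473-71537722 on the minus strand, is printed in the direction of the gene and overlaps no annotated exon.
Bst2: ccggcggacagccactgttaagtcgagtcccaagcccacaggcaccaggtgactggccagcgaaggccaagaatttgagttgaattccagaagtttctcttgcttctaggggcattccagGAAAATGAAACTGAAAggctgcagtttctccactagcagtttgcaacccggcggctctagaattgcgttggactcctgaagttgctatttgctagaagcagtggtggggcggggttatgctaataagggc

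Bst2 (chromosome 8, 71534255 to 71537456) encodes tetherin, which holds budding virus at the cell surface. Its FPKM was 15.6, 12.9 and 14.1 on PLLA/ZnO -US and 10.6, 9.38 and 9.7 on PLLA/ZnO +US, without overlap. On PLLA/ZnO@Col it was 3.24, 5.42 and 5.43 without ultrasound and 3.36, 9.51 and 10.9 with it. The low +US library is replicate 1, which had few Y-linked reads. The interaction was 1.28 ± 0.45, 1.46 without the few-Y libraries and 0.18 without the libraries under 2% mitochondrial counts. Gbp2, an interferon-induced GTPase, had an interaction of 0.67 ± 0.25, and Xaf1, an interferon-induced inhibitor of XIAP, of 0.79 ± 0.27. These 2 kept 0.74 and 0.59 without the libraries under 2% and had 1.20 and 1.24 without the few-Y libraries. Zbp1, a sensor of nucleic acids, had 1.75 ± 0.67 and turned to -0.22 without the libraries under 2%. Without the few-Y libraries it had 1.74.

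MHC class I genes had the highest median interaction among lists with at least 10 tested members, 0.51. Positive interactions were found in 12 of 14 tested members, against 42.8% of all genes, 6 at an unadjusted p under 0.05, against 1.71%. None was called. The median effect was -0.20 on PLLA/ZnO, with 13 of 14 lower, against 53.7% of all genes. On PLLA/ZnO@Col it was 0.38, with 10 of 14 higher, against 47.1% of all genes. The median interaction was 0.97 without the few-Y libraries and 0.53 without the libraries under 2%. It was 0.48 with the term for few macrophage marker reads and 0.84 without PLLA/ZnO@Col -US replicate 3. Psmb9, a subunit of the immunoproteasome that cuts peptides for presentation (chromosome 17, 34181987 to 34187764), had 2.89, 2.14 and 3.04 FPKM on PLLA/ZnO -US and 1.64, 1.8 and 1.74 on PLLA/ZnO +US. It had 0.655, 0.71 and 1.66 FPKM on PLLA/ZnO@Col -US and 0.97, 2.29 and 2.2 on PLLA/ZnO@Col +US. The groups did not overlap on PLLA/ZnO, where ultrasound libraries were lower. They overlapped on PLLA/ZnO@Col, where 2 of 3 were higher than every -US library. The interaction was 1.49 ± 0.48, with a 95% interval of 0.45 to 2.52.

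Without the 3 few-Y libraries Psmb9 had an interaction of 2.31 and an edgeR adjusted p of 0.0307, which rests on PLLA/ZnO@Col -US replicate 2 alone in its group. It was 1 of 13 genes called in that fit, beside Gm45717, Ocel1, Cracr2b, Mmp13, Dcn, Dio3, Ctsk, Fabp5, mt-Ty, Hmga2, Fcor and Ccn5. The other 12 were chosen for naming after their values were seen. Tap2, a subunit of the peptide transporter, had an interaction of 0.76 ± 0.26, and the class I heavy chain H2-K1 of 1.20 ± 0.47. The heavy chain H2-Q4 had 1.03 ± 0.40. H2-K1 and H2-Q4 belong to a family of near-identical genes, and how reads shared between them were counted is not given in the sources used here, so their values are uncertain. H2-Q4 came to -0.16 and H2-K1 to 0.10 without the libraries under 2%, while Tap2 stayed at 0.78 and had 1.18 without the few-Y libraries.

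**Figure D3:**
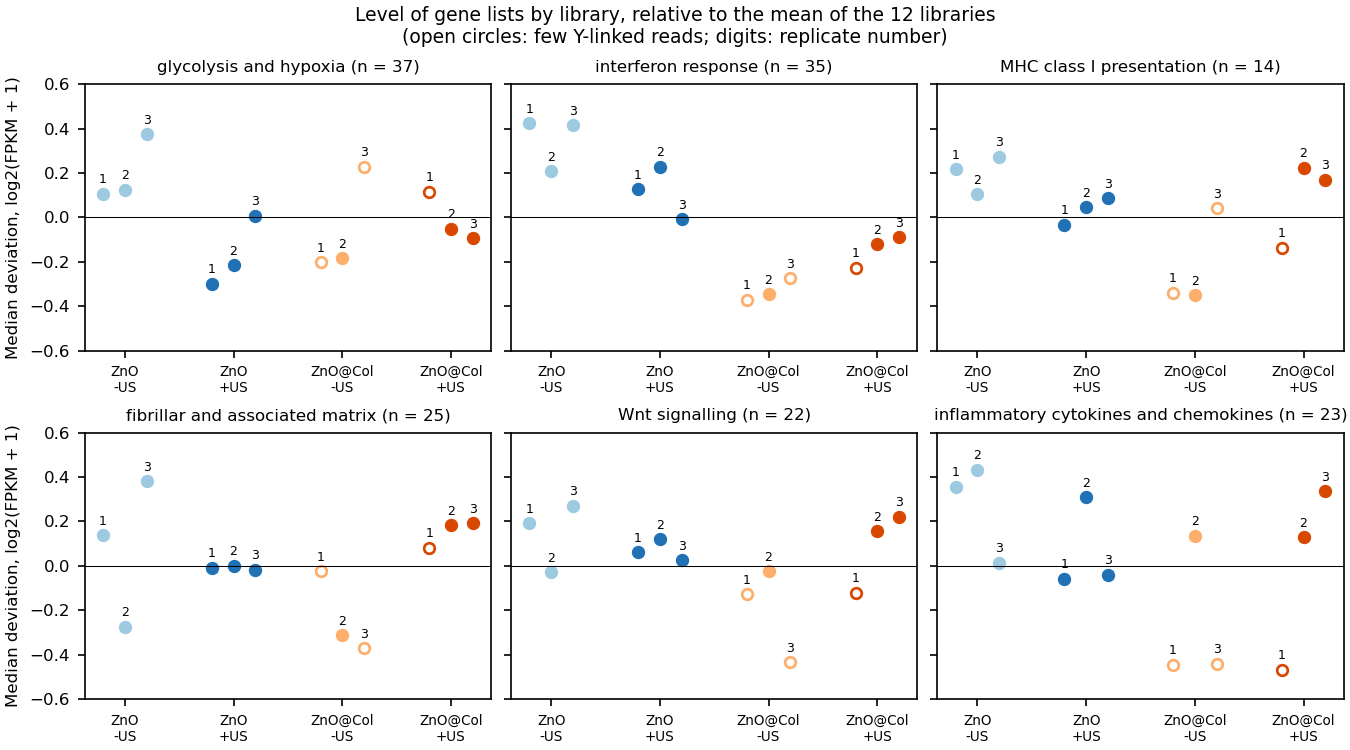
Median over the members of 6 gene lists of the deviation of log2(FPKM + 1) from the mean of the 12 libraries (vertical axis), by group, with the replicate number beside each dot and open dots for libraries with few Y-linked reads. For interferon genes all 3 PLLA/ZnO@Col -US libraries lie at -0.27 or below and all 3 PLLA/ZnO -US libraries at 0.21 or above, while for inflammatory genes the 3 open dots lie at -0.44 to -0.47.

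The rule for opposite directions asked for an unadjusted interaction p under 0.05 and a log2 difference of at least 0.5 in each arm, with opposite signs. It was met by 32 of 11936 genes (0.268%). Of these, 23 (0.193%) were higher with ultrasound on PLLA/ZnO@Col and lower on PLLA/ZnO, and 9 (0.0754%) the reverse. Opposite signs of any size occurred in 3544 genes (29.7%), almost evenly split into 1824 (15.3%) and 1720 (14.4%). With at least 0.5 in each arm at any p there were 73 genes (0.612%). The rule used the interaction and both arms, so the values of its members in these contrasts are described and not tested.

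Many of the 32 were scarce or poorly characterised transcripts. Clone, predicted-gene, pseudogene, miRNA or mitochondrial names made up 18 of them (56.2%), against 14.4% of all tested genes. The highest of the 4 group means was under 2 FPKM in 15 (46.9%), against 15.1% of all tested genes. Just inside the threshold on p was mt-Tl2, a mitochondrial tRNA, with an interaction of -1.44, and just outside it Gm14822, with log2 differences of -1.26 on PLLA/ZnO and 0.74 on PLLA/ZnO@Col. The gene with the smallest interaction p among the 32 was Gm16046, at 1.70 ± 0.38 and a mean of 1.23 FPKM or less in each group. The rule was also met by 18 of the 32 with a term for few Y-linked reads in the fit, by 19 without the few-Y libraries, by 26 with the term for few macrophage marker reads and by 10 without the libraries under 2% mitochondrial counts. Of 11 genes (0.0922%) whose libraries did not overlap in either arm and differed in direction, 7 were higher with ultrasound on the collagen membrane (0.0586%) and 4 lower (0.0335%). Gm16046, Gm18584, Gm15899 and Mir8114 were in both sets.

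Of the 23 genes higher on PLLA/ZnO@Col and lower on PLLA/ZnO, 13 had ordinary gene names. Beside Psmb9, Bst2, Zbp1 and H2-Q4 they were Ccl5, Bmp4, Sbsn, Sectm1a, Slamf8, Ifit3b, Gdpd2, Ptx3 and Cracr2b. In all 13, PLLA/ZnO@Col +US replicate 1 was the lowest of the 3 +US libraries on that membrane, and in 12 PLLA/ZnO -US had the highest of the 4 group means. Ccl5, a chemokine for T cells and monocytes (chromosome 11, 83525778 to 83530518), shows this form. Its FPKM was 45.3, 39.9 and 37.5 on PLLA/ZnO -US and 18.2, 28.2 and 26.2 on PLLA/ZnO +US. On PLLA/ZnO@Col it was 1.67, 11.8 and 2.18 without ultrasound and 2.23, 28 and 34.2 with it. The 3 values near 2 FPKM are those of the libraries with few Y-linked reads. The interaction was 2.82 ± 1.02, and it was 1.61 with a term for few Y-linked reads and 2.17 without the few-Y libraries. It was 2.48 with the term for few macrophage marker reads and -0.73 without the libraries under 2%.

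Bmp4, a growth factor that drives osteoblast differentiation (chromosome 14, 46383520 to 46390669), had 8.46, 7.27 and 8.08 FPKM on PLLA/ZnO -US and 6.68, 5.6 and 4.39 on PLLA/ZnO +US. It had 1.03, 2.63 and 1.1 FPKM on PLLA/ZnO@Col -US and 0.97, 4.4 and 5.49 on PLLA/ZnO@Col +US. Again the 3 lowest libraries were those with few Y-linked reads. The interaction was 1.71 ± 0.63, with 0.94 in the fit with a term for them and 1.45 without them. It was -0.50 without the libraries under 2%. The part of the few-Y libraries in these 13 genes was not tested beyond these values.

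In the reverse direction the rule gave 1 ordinary gene name, Dmp1, a matrix protein of osteocytes and mineralising bone. Its FPKM was 0.47, 0.308 and 0.848 on PLLA/ZnO -US, 1.38, 1.29 and 0.666 on PLLA/ZnO +US, 0.721, 2.46 and 0.931 on PLLA/ZnO@Col -US, and 1.09, 0.61 and 0.588 on PLLA/ZnO@Col +US. The groups overlapped in both arms, and the interaction of -1.85 ± 0.68 came to -1.19 without PLLA/ZnO@Col -US replicate 2, the library at 2.46, and to -3.02 without the few-Y libraries.

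Matrix and collagen processing genes, the programme closest to the collagen of the membrane, leaned to the positive side. Of 25 tested genes of fibrillar and associated matrix, 21 had a positive interaction, 6 at an unadjusted p under 0.05, with a median of 0.34. Of 21 tested collagen processing genes, 19 were positive, 4 at an unadjusted p under 0.05, with a median of 0.24. Over all genes, 42.8% were positive, and 1.71% were positive past that threshold. With all libraries, no gene of either list was called. The 4 matrix genes with a negative interaction included Dcn (decorin), at -0.81 ± 0.66. It had -2.51 without the few-Y libraries and -0.40 without PLLA/ZnO@Col -US replicate 2. The medians stayed positive in every alternative, at 0.60 and 0.53 without the few-Y libraries and 0.26 and 0.47 without the libraries under 2% and 0.38 and 0.26 with the term for few macrophage marker reads. The matrix median was 0.22 without PLLA/ZnO -US replicate 3 or PLLA/ZnO@Col -US replicate 3, 0.53 without PLLA/ZnO -US replicate 2 and 0.59 without PLLA/ZnO@Col -US replicate 1, and the collagen processing median was 0.14 without PLLA/ZnO@Col -US replicate 2.

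Col6a1, a chain of the microfibrillar collagen around cells (chromosome 10, 76708792 to 76726168), had 259, 182 and 326 FPKM on PLLA/ZnO -US and 258, 261 and 275 on PLLA/ZnO +US. On PLLA/ZnO@Col it had 150, 128 and 153 FPKM without and 199.6, 268 and 292 with ultrasound, without overlap. The effect was 0.05 ± 0.20 on PLLA/ZnO and 0.81 ± 0.21 on PLLA/ZnO@Col, a difference of 0.77 ± 0.29. Col5a1, a chain of the collagen that sets fibril width, had an interaction of 0.63 ± 0.23 and its relative Col5a3 of 0.69 ± 0.24, or 0.39 without the few-Y libraries. Tnn, tenascin-W of the bone surface, had 2.24 ± 0.67 and turned to -0.11 without the libraries under 2%. Cthrc1, a secreted protein with collagen repeats, had effects of 0.34 ± 0.31 and 1.58 ± 0.32, without overlap in either arm, and an interaction of 1.25 ± 0.44. Plod1, the lysyl hydroxylase of procollagen, had 0.61 ± 0.22. Col1a1 itself had 0.46 with a 95% interval of -0.20 to 1.11, and 0.18 without PLLA/ZnO@Col -US replicate 2, 0.27 without PLLA/ZnO -US replicate 3 and 1.10 without the few-Y libraries.

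Among integrins and collagen receptors 7 of 19 tested members (36.8%) were positive, near the 42.8% of all genes. Their median interaction was -0.04, against -0.05 for all tested genes, and 0 were called. Itga11, a receptor for fibrillar collagen, had 28.6, 16.1 and 39.2 FPKM on PLLA/ZnO -US, 29, 27.3 and 27.5 on PLLA/ZnO +US, 15.4, 14 and 11.9 on PLLA/ZnO@Col -US and 19.2, 28.6 and 30.4 on PLLA/ZnO@Col +US. The collagen groups did not overlap, while the wide PLLA/ZnO -US group held all 3 PLLA/ZnO +US values. The interaction was 0.92 ± 0.36, with 0.59 without PLLA/ZnO -US replicate 3 and 0.40 without the libraries under 2%. Of 22 tested matrix proteases and inhibitors 18 were positive, 2 at an unadjusted p under 0.05. Their median of 0.22 was 0.053 without the few-Y libraries and -0.18 without the libraries under 2%. The 4 negative members included Mmp13 and Ctsk. Mmp13 had -3.08 ± 1.57, -4.23 without the few-Y libraries and 1.70 without PLLA/ZnO@Col -US replicate 2. In the same order, Ctsk had -0.62 ± 0.39, -1.34 and -0.063. Mmp9, a gelatinase of bone remodelling, had 14.6, 13.2 and 15.8 FPKM on PLLA/ZnO -US, 9.46, 11.6 and 14.8 on PLLA/ZnO +US, 8.19, 8.06 and 10.2 on PLLA/ZnO@Col -US, and 13.3, 12.8 and 16 on PLLA/ZnO@Col +US. All 3 collagen +US libraries, the one with few Y-linked reads included, were above all 3 -US libraries. The interaction was 0.95 ± 0.29, 1.14 without the few-Y libraries and 1.20 without the libraries under 2%.

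**Figure D4:**
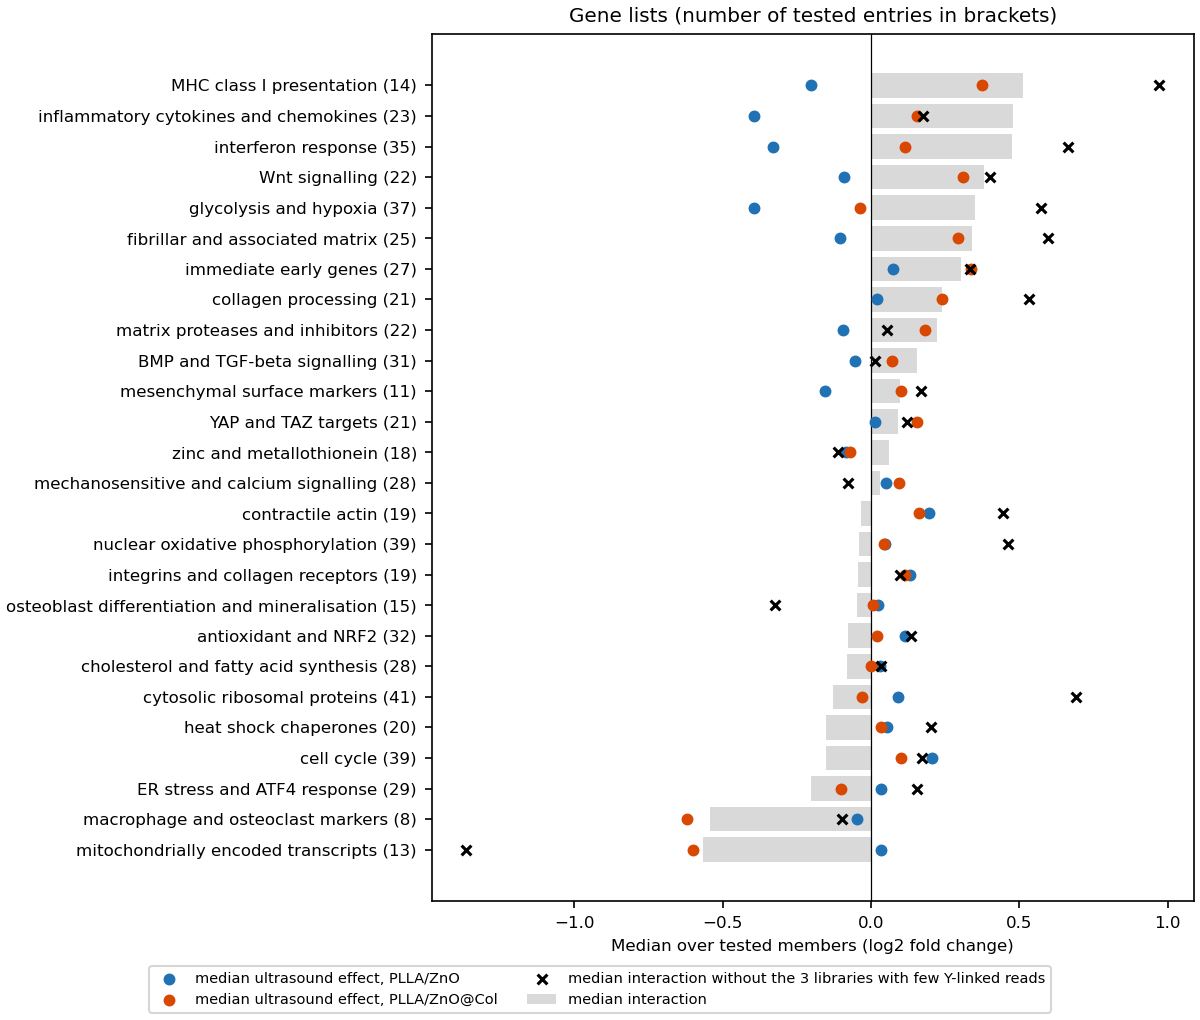
Median over the tested members of each gene list of the interaction (grey bars), the ultrasound effect on PLLA/ZnO (blue) and on PLLA/ZnO@Col (orange), all in log2, with crosses for the interaction without the 3 libraries with few Y-linked reads. MHC class I genes lead at 0.51 and mitochondrially encoded transcripts are lowest at -0.57; the 6 lists with fewer than 5 tested members are not drawn.

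Wnt and BMP genes varied more with the choice of libraries. Of 22 tested Wnt genes 19 had a positive interaction, against 42.8% of all genes. At an unadjusted p under 0.05, 5 were positive, against 1.71%, and 1 negative, against 0.494%, with 0 called. Their median was 0.38, and -0.13 without the libraries under 2%. Axin2, a feedback inhibitor used as a readout of canonical Wnt signalling (chromosome 11, 108920349 to 108950783), had 1.53, 1.08 and 1.93 FPKM on PLLA/ZnO -US and 1.33, 1.55 and 1.65 on PLLA/ZnO +US. It had 0.778, 0.827 and 0.5 FPKM on PLLA/ZnO@Col -US and 0.986, 1.5 and 1.75 on PLLA/ZnO@Col +US, without overlap. The interaction was 1.01 ± 0.37, and it was 0.39 without the libraries under 2%. Of 31 BMP and TGF-beta genes, 20 were positive, with a median of 0.15, but 0.013 without the few-Y libraries, -0.21 without the libraries under 2% and 0.0078 without PLLA/ZnO@Col -US replicate 3. Smad6, an inhibitor induced by BMP signals, had 0.67 ± 0.27, and Tgfb1, the ligand, -0.58 ± 0.23. Without the libraries under 2%, Smad6 had 0.47 and Tgfb1 -0.0093.

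Inflammatory cytokines and chemokines had a median interaction of 0.48 with 18 of 23 positive, against 42.8% of all genes. At an unadjusted p under 0.05, 5 were positive, against 1.71%, and 0 were called. However, the median was 0.18 without the few-Y libraries and -0.63 without the libraries under 2%. It was 0.88 without PLLA/ZnO@Col -US replicate 2, 0.74 without PLLA/ZnO@Col +US replicate 1, 0.28 without PLLA/ZnO@Col -US replicate 3 and 0.29 without PLLA/ZnO -US replicate 2. Cxcl12, a chemokine of stromal cells that retains blood stem cells, had 52.3, 51.6 and 56 FPKM on PLLA/ZnO -US, 39, 43.6 and 48 on PLLA/ZnO +US, 29.8, 30.9 and 27.9 on PLLA/ZnO@Col -US and 27.6, 44.5 and 51.5 on PLLA/ZnO@Col +US. The groups did not overlap on PLLA/ZnO. On PLLA/ZnO@Col replicates 2 and 3 with ultrasound were above every -US library and replicate 1, with few Y-linked reads, below every one. The interaction was 0.77 ± 0.23. Tnfaip3, which limits NF-kappaB signalling, had 0.72 ± 0.26. Without the libraries under 2%, Cxcl12 and Tnfaip3 both came to 0.25. Cxcl10, an interferon-induced chemokine, had 1.36 ± 0.55 and -0.24 without the libraries under 2%. The 8 tested macrophage and osteoclast markers all had a negative interaction, against 57.2% of all genes, with a median of -0.54. This median was -0.10 without the few-Y libraries and 0.50 without the libraries under 2%. It was 0.13 with the term for few macrophage marker reads. That is no separate check, because the term was built from members of this list, Tyrobp, Itgam, Csf1r and Ctss. With 1 library left out the median ran from -2.56 (without PLLA/ZnO@Col +US replicate 1) to -0.095 (without PLLA/ZnO -US replicate 3). With the macrophage term the inflammatory list had a median of 0.51.

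Among genes outside these programmes, the most positive interactions at an unadjusted p under 0.01, with the limits on level and name, included those of Serpina3h, a serine protease inhibitor, and Apol6, an apolipoprotein L. Serpina3h had 2.17, 1.61 and 2.41 FPKM on PLLA/ZnO -US, 1.42, 1.89 and 1.67 on PLLA/ZnO +US, 0.209, 0.459 and 0.816 on PLLA/ZnO@Col -US, and 1.36, 1.22 and 1.77 on PLLA/ZnO@Col +US. Its collagen groups did not overlap, and its interaction of 1.87 ± 0.53 was 2.04 without the few-Y libraries and 2.37 without the libraries under 2%. Serpina3h belongs to a family of close copies, which makes its counts uncertain. Apol6 had 1.48 ± 0.39 and 0.52 without the libraries under 2%. The others were Scara5 (1.11 ± 0.34), a ferritin receptor, Alox5ap (1.04 ± 0.35), a protein of leukotriene synthesis, C1rb (0.97 ± 0.29), a complement protease, and Stx1a (0.88 ± 0.29), a syntaxin of vesicle fusion. Without the libraries under 2%, Stx1a came to 0.15, Scara5 to 0.52 and C1rb to 0.55, while Alox5ap had 0.85.

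On the negative side 4 genes met the same limits. Xrcc5, the Ku80 subunit of DNA break repair (chromosome 1, 72307427 to 72394952), had 12.3, 13.8 and 13.1 FPKM on PLLA/ZnO -US and 15.7, 15.3 and 11.9 on PLLA/ZnO +US. It had 18, 17.6 and 18.2 FPKM on PLLA/ZnO@Col -US and 14.8, 10.7 and 10.5 on PLLA/ZnO@Col +US. The collagen groups did not overlap, and the -US libraries lay within 0.6 FPKM of each other although 2 of them had few Y-linked reads. The interaction was -0.71 ± 0.21, -0.84 without the few-Y libraries and -0.50 without the libraries under 2%. Rufy1, an endosomal protein, had -0.54 ± 0.17 and no overlap in either arm, with ultrasound libraries higher on PLLA/ZnO and lower on PLLA/ZnO@Col. Tmem230 and Tmem251, membrane proteins of the secretory and lysosomal pathways, had -0.64 ± 0.21 and -0.81 ± 0.27. All 4 stayed negative in every alternative that could be fitted.

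**Figure D5:**
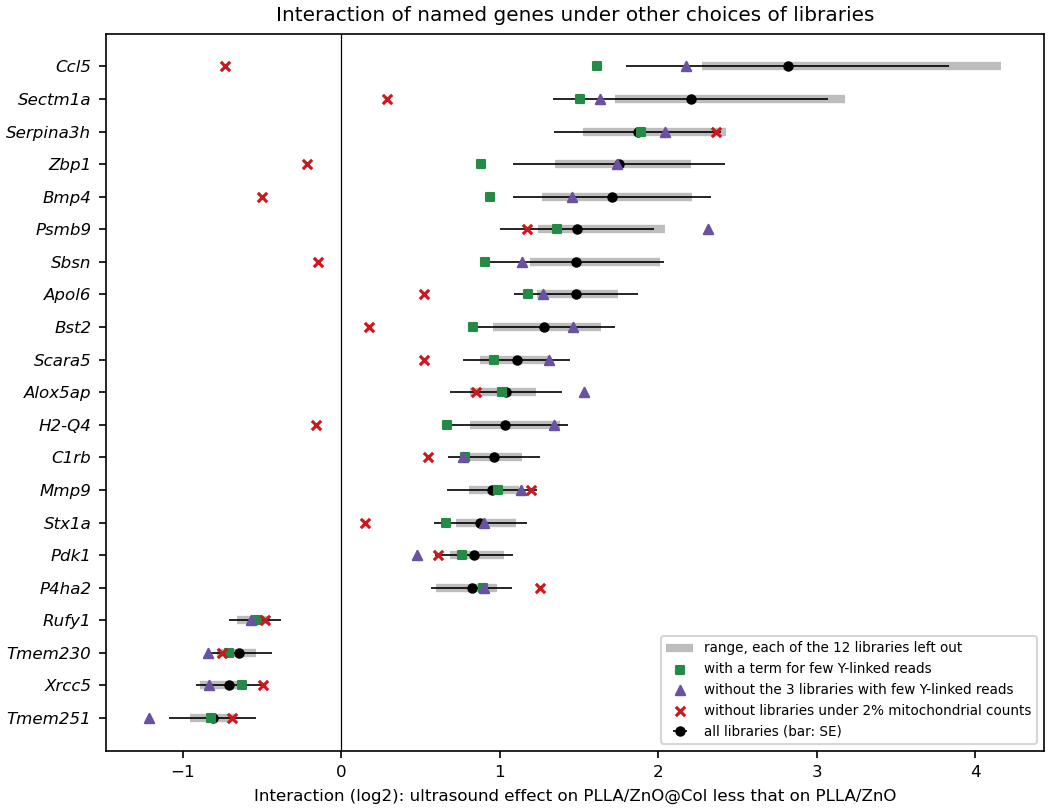
Interaction (log2, horizontal axis) of 21 named genes with all libraries (black, bar for SE), the range with each of the 12 libraries left out (grey), with a term for few Y-linked reads (green), without those libraries (purple) and without libraries under 2% mitochondrial counts (red). The red crosses of Ccl5, Zbp1, Bmp4, Sbsn and H2-Q4 lie below 0, while P4ha2, Serpina3h, Mmp9, Psmb9 and the 4 negative genes keep their sign.

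For genes often measured in bone and mechanical experiments the interaction was small against its interval. Runx2 had 8.06, 6.89 and 9.46 FPKM on PLLA/ZnO -US, 8.87, 9.44 and 6.22 on PLLA/ZnO +US, 8.86, 9.44 and 6.49 on PLLA/ZnO@Col -US and 9.49, 6.26 and 8.29 on PLLA/ZnO@Col +US, and all groups overlapped. Its interaction was -0.05, with a 95% interval of -0.65 to 0.55. Piezo1, a mechanically gated channel, had -0.15 (-0.78 to 0.47), and Mt1, the zinc-induced metallothionein, -0.08 (-0.94 to 0.77). Spp1 had -0.78 (-2.37 to 0.82), and 0.41 without PLLA/ZnO@Col -US replicate 2, where it stood at 3609 FPKM against 658 and 731 in the other two. These intervals do not show that the membranes act alike. The osteoblast list as a whole had 7 of 15 tested members positive and a median of -0.05, near that of all genes. Its median was -0.32 without the few-Y libraries, -0.23 without the libraries under 2%, -0.16 without PLLA/ZnO@Col -US replicate 3 and 0.18 without PLLA/ZnO@Col -US replicate 2. Ank, a pyrophosphate transporter that restrains mineralisation, had -0.44 ± 0.19.

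Immediate early genes, which cells induce within minutes of a stimulus, were positive in 24 of 27 tested members, against 42.8% of all genes. Their median was 0.30, but only Maff, a small Maf transcription factor, was at an unadjusted p under 0.05, and 0 were called. The median was 0.067 without the libraries under 2% and 0.20 without PLLA/ZnO@Col -US replicate 1, and Maff went from 0.48 to 0.15 without the few-Y libraries. Egr1 had 26.4, 23.8 and 26 FPKM on PLLA/ZnO -US and 32.6, 31.3 and 35.2 on PLLA/ZnO +US. On PLLA/ZnO@Col it had 36.1, 55.7 and 56.2 FPKM without and 70.9, 80.7 and 93.5 with ultrasound. Its +US libraries were above its -US libraries on both membranes, without overlap, and the interaction of 0.36 had a 95% interval of -0.46 to 1.17. Fos had 1.07, with an interval of -0.72 to 2.86. Without PLLA/ZnO@Col -US replicate 1, Egr1 had 0.19 and Fos 0.61.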

How the data were processed

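Polyadenylated RNA of 18 MC3T3-E1 samples was sequenced. The submitters' processing notes name cutadapt 1.9 for trimming, FastQC, and the build GRCm38. Not given in the sources used here were aligner, counter and strand handling. The authors deposited whole-number counts per gene and FPKM values (fragments per length and library size) in 1 table, per the file headers. Of 30452 genes, 11936 reached an FPKM of 1 in at least 3 of the 18 libraries and were tested, so a gene could pass through any group. Counts were scaled by TMM and tested two-sided with edgeR 4.0.16 in R 4.3.3 (quasi-likelihood F-test, a mean per group, 12 residual degrees of freedom), with Benjamini-Hochberg adjustment within each contrast. Totals of 48307580 to 78039543 counts mean that the spread between libraries (common biological coefficient of variation 0.28), not counting error, limited precision. The code was tested on simulated data.

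Titles or treatment labels gave each library its group. Members and gene lists were chosen with earlier results of these data known. Named genes were the 10 most positive and 10 most negative interactions at an unadjusted p under 0.01 (none being called), up to 8 per direction of the opposite genes, both leaving out clone and pseudogene names and genes under 2 FPKM in the highest group, then as many as 4 per list at an unadjusted p under 0.05, and a fixed panel. Other genes named were chosen after their values were seen. Alternatives used DESeq2 1.42.0, limma 3.58.1, other scalings and filters, a replicate block, a term for few Y-linked reads, and libraries left out. Leaving out the libraries under 2% mitochondrial counts, a term for few macrophage marker reads and that term with the Y-linked term were added after the data were seen.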

Additional observations from a re-analysis of the deposited data

How the results depend on the processing

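Over 26 alternatives, the count of called interactions stayed at 0 in 23, and the number of opposite direction genes, 32 with all libraries, stayed within 1.5 times of that in 19. With each of the 12 libraries left out, called interactions ranged from 0 to 1 (Gm43302, without PLLA/ZnO +US replicate 2), calls for ultrasound on PLLA/ZnO from 0 to 1, calls for ultrasound on PLLA/ZnO@Col from 0 to 38 (without PLLA/ZnO@Col +US replicate 1) and opposite direction genes from 22 to 87. The 87 came without PLLA/ZnO@Col -US replicate 2 and 49 without PLLA/ZnO@Col +US replicate 1. DESeq2 called 5 genes for ultrasound on PLLA/ZnO and 3 on PLLA/ZnO@Col. Opposite-direction genes numbered 7 with limma on log2(FPKM + 1), 508 with no filter on low values and 6 with FPKM at least 5 in 3 libraries. Without the libraries with few Y-linked reads, 13 interactions, 111 genes for ultrasound on PLLA/ZnO@Col and 62 opposite direction genes were found, and the interaction of Psmb9 was 2.31. Without the libraries under 2% mitochondrial counts, 1 interaction (Gm28042), 1 gene for ultrasound on PLLA/ZnO@Col and 57 opposite direction genes were found. The first choice leaves PLLA/ZnO@Col -US with replicate 2 alone. The second leaves PLLA/ZnO@Col +US with replicate 1 alone, which is a few-Y library. The cause of these moves was not tested.

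Among genes picked by the naming rules, the interaction stayed on the same side, with the same verdict, in 1746 combinations of gene and alternative. Its sign turned in 30. With single libraries left out these were Piezo1 (range -0.37 to 0.055), Runx2 (-0.21 to 0.10), Spp1 (-1.15 to 0.41) and Mt1 (-0.54 to 0.13). Without the libraries under 2% mitochondrial counts, the interactions were -0.11 for Tnn, -0.73 for Ccl5, -0.50 for Bmp4, -0.15 for Sbsn, -0.22 for Zbp1, -0.16 for H2-Q4, -0.067 for Itga3, -0.24 for Cxcl10, -0.25 for Adamts2, -0.11 for Fzd8, -0.045 for Hspa1b, -1.05 for Sfrp2, -0.62 for Cxcl5, -2.10 for Saa3, -3.22 for Thy1 and 0.89 for Mt1. With terms for few Y-linked and few macrophage marker reads together, the interaction of Mt1 was 0.0011. In the fit without the libraries under 2%, PLLA/ZnO@Col +US was replicate 1 alone, a few-Y library. The cause of the turns was not tested.

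Deviations of same-numbered libraries from their group means had correlations from -0.552 to 0.657 over 18 pairs, 5 of them over 0.1. The labels do not say that a replicate number marks a shared culture or batch. With so few libraries per group, these correlations cannot settle it. With the replicate block the interaction had 0 calls, both arms had 0 calls, and 34 genes met the rule for opposite directions.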

Other observations

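Mitochondrially encoded transcripts, which code for subunits of the respiratory chain, had a negative interaction in 13 of 13 tested genes, against 57.2% of all genes. Their median interaction was -0.57, with 0 at an unadjusted p under 0.05 by edgeR. Their median ultrasound effect was 0.03 on PLLA/ZnO and -0.60 on PLLA/ZnO@Col, where all 13 were lower with ultrasound. The interaction median ranged from -0.82 to -0.13 with each library left out. It was -0.73 without the libraries under 2% mitochondrial counts, a choice made on the values of these same genes. It was -1.36 without the few-Y libraries, which leaves PLLA/ZnO@Col -US replicate 2, with the highest mitochondrial share, alone in its group. The genes' median deviation from the mean of the 12 libraries was 0.88 in that library and -0.16 and -0.26 in replicates 1 and 3. The nuclear genes of oxidative phosphorylation had a median of -0.04 with 15 of 39 positive. Their median was 0.46 without the few-Y libraries.

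Cell cycle genes were negative in 33 of 39 members, against 57.2% of all genes. Their median interaction was -0.15, and 0.17 without the few-Y libraries. Genes of ER stress and the ATF4 response were negative in 24 of 29 with a median of -0.20, and 0.15 without those libraries. Mthfd2, a mitochondrial folate enzyme induced by ATF4, had an interaction of -0.42 ± 0.17, and -0.20 without those libraries. Gclm, a subunit of the enzyme that starts glutathione synthesis, had -0.58 ± 0.22, and -0.32 without the libraries under 2% mitochondrial counts, in a list of antioxidant genes with a median of -0.08. Hsph1, a large heat shock protein, had -0.54 ± 0.23, while Hspa1b, an inducible HSP70, had 0.71 ± 0.32 and turned to -0.05 without the libraries under 2% mitochondrial counts. No gene of these lists was called.

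The AP-1 site TGANTCA, whose reverse complement reads alike, was searched in the 250 bases before the start of genes with a RefSeq window. It occurred in 4 of 12 matrix protease genes (33.3%) and in 2113 of 27025 genes (7.82%), which were not limited to those tested. These shares too do not depend on the libraries.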
